A study of Homo sapiens with 6 samples.

Results

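Interferon-stimulated genes are the genes that cells switch on when interferon signals reach the nucleus, and 38 of them, chosen by name, were followed among the 19973 genes of a read count and FPKM table (read counts divided by gene length and library total). All 38 were found in the table by exact match of the gene symbol. The libraries were made from OVCAR3, an established human ovarian cancer cell line, after transfection with a control hairpin (shNC, 3 libraries) or with a hairpin against NUF2 (shNUF2, 3 libraries). Puromycin selection was used to obtain stable lines in both groups. The labels give the genotype as WT for shNC and as NUF2 knockdown for shNUF2. No interferon, age or time point is part of the labels, 1 hairpin stands for the knockdown, and nothing says whether the 3 libraries of a group came from separate cultures, so that p-values measure the spread between these libraries, which may be technical. NUF2 is a subunit of the kinetochore complex that holds chromosomes to the spindle, and the comparison asked how its knockdown changed gene expression in these cells.

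Type I and type III interferons bind receptors that use the kinases JAK1 and TYK2, and STAT2 is among the proteins these phosphorylate. STAT2 and IRF9 are parts of ISGF3, a factor that binds the interferon-stimulated response element (ISRE) in the promoters of its target genes. Interferon gamma acts through a different element called GAS, and IRF1 carries part of that response further. The proteins made from these genes block virus entry, degrade or hide RNA, modify other proteins and shut the signal down again, and tumour cell lines differ in how much of the program they express without added interferon.

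Total read counts per library were 13057534 to 16995452. NUF2 itself was read 903, 1096 and 1092 times with shNC, against 281, 290 and 384 times with shNUF2. Its level fell by 1.51 on the log2 scale (SE 0.08, adjusted p = 2.17e-15), so the target moved as its labels say. Mitochondrial genes took 3.57 to 3.85% of the reads with shNC and 2.38 to 2.63% with shNUF2, and 14582 to 14691 genes had a read with shNC against 15435 to 15536 with shNUF2. Of 9 ovarian carcinoma markers, KRT7, KRT8, KRT18, MSLN, MUC16 and PAX8 were present in every library, while EPCAM had 44 to 91 reads, CDH1 9 to 33 and WT1 0 to 7. Of the 8 tested, 4 rose (50%) and 3 fell (37.5%) at an adjusted p under 0.05, against 33.9% and 33.8% of all genes tested. Among them were KRT8 at a log2 fold change of 1.04, PAX8 at 0.64, KRT18 at 0.55, MUC16 at -0.75 and MSLN at -0.75. Of the leukocyte markers, LILRA4 and NCR1 were at 0 in all libraries, CD3E at 0 to 1 read, PTPRC at 0 to 1 read with shNC and 6 to 11 with shNUF2, and CD14 at 0 to 3 and 6 to 11 reads. The 6 fibroblast markers summed to 84.0 to 90.6 CPM (read counts scaled to a common library size) with shNC and 69.0 to 76.3 CPM with shNUF2, mostly COL1A1 at 79.0 to 85.3 and 58.9 to 64.2 CPM, while DCN rose (log2 fold change 1.22, adjusted p = 7.00e-06) and COL3A1 had 0 to 2 and 5 to 15 reads. The 3 endothelial markers summed to 1.75 to 3.38 CPM with shNC and 3.41 to 4.92 CPM with shNUF2, with CDH5 at 1 to 4 and 15 to 27 reads (log2 fold change 3.45, adjusted p = 7.15e-06) and PECAM1 not called (log2 fold change -0.02). The part of these differences in the results that follow was not tested, and in RNA from whole cultures a larger share of expressing cells cannot be told apart from more RNA per cell.

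The promoters of these genes are shown first, because the ISRE is the element through which ISGF3 is known to act. RefSeq promoter windows (GRCh38.p14, from 250 bases before to 50 after the start of transcription) were at hand for 30 of the 38 genes. OAS2, OASL, MX2, IFIT2, IRF2, IFITM2, USP18 and TRIM22 had no entry. An ISRE-like core, spelled GAAANNGAAA or on the other strand TTTCNNTTTC, was found in 19 of the 30 windows (63.3%), against 996 of all 27305 windows in the table (3.65%). A GAS-like core, spelled TTCNNNGAA and the same on both strands, was found in 9 of the 30 (30%), against 2152 of all windows (7.88%). The letters of both cores can share bases, as they do in the IFI27 window. The stretches below were chosen to show genes that were higher (ISG20, IFI27, IFI44, SAMD9, ISG15, BST2 and IRF1), lower (PARP14) and not called (IFIT1) with shNUF2. They run 5′ to 3′ on the strand of the gene and end before the RefSeq start, which can differ from the start in the deposited table, and those of ISG15, ISG20 and IFI27 lie inside the span that table gives for the gene, with the ISRE-like core in capitals, except for IRF1 where capitals mark the GAS-like core.
ISG20, chr15:88638932-88638971, plus strand: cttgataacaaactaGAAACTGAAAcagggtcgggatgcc
IFI27, chr14:94110613-94110665, plus strand: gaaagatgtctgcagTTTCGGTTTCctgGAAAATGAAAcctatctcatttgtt
IFI44, chr1:78649756-78649788, plus strand: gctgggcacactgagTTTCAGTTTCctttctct
SAMD9, chr7:93118091-93118130, minus strand: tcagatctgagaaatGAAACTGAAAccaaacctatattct
ISG15, chr1:1013369-1013414, plus strand: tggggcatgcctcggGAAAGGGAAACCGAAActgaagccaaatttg
BST2, chr19:17405730-17405775, minus strand: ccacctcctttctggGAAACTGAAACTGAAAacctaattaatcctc
PARP14, chr3:122680795-122680834, plus strand: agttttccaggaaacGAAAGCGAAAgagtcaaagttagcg
IFIT1, chr10:89392492-89392544, plus strand: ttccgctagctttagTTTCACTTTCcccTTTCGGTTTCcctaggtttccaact
IRF1, chr5:132490874-132490912, minus strand: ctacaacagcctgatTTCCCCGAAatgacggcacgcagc
ISG20 and SAMD9 carry the same 10 letters, and BST2 carries that core in overlapping copies. Among genes with a window, an ISRE-like core was present in 11 of the 15 that were higher with shNUF2, in 3 of the 6 that were lower and in 4 of the 5 that were not called, and in 1 of the 4 too low to be tested. The GAS-like core was present in 5 of the 15, 2 of the 6, 1 of the 5 and 1 of the 4. A match of letters says nothing about binding in these cells, and the counts per class are a description of the windows.

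With shNUF2 the 38 genes did not move as one. Of the 34 with enough reads to be tested, 18 were higher (52.9%) and 7 were lower (20.6%) at an adjusted p under 0.05 (edgeR's quasi-likelihood test, Benjamini-Hochberg over 12874 genes), and 9 were not called. Over all genes tested the same rule called 33.9% higher and 33.8% lower. The higher genes included all 4 members of the OAS family, ISG15, ISG20, SAMD9, IRF1 and IRF9, and the lower genes were PARP14, PARP9, DTX3L, IFIT5, IFIT2, IFI35 and HERC6. At the size used in the study's methods, a log2 fold change beyond 1 with an unadjusted p under 0.05, 6 genes were higher (17.6%) and 0 were lower, against 9.41% higher and 4.16% lower among all genes. These 6 were OAS1, OAS2, ISG20, IRF9, IFI27 and IFI44. OAS2 at 1.01 and IFI44 at 1.05 lay just inside that size, and SAMD9 at 0.88, IRF1 at 0.86 and IFI44L at 0.83 lay just outside it.

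The median log2 fold change was 0.27 over the 34 tested members and -0.01 over all genes tested. In CPM, the lowest shNUF2 library exceeded the highest shNC library for 18 of the 34 tested members, and the reverse held for 7, against 35.2% and 35.4% of all genes tested. These were the tested members called higher and lower, and the untested members RSAD2, XAF1 and EPSTI1 also had groups that did not overlap. Summed over the 38 genes, expression was 1351 to 1377 CPM in the shNC libraries and 1510 to 1576 CPM in the shNUF2 libraries, so the ranges did not overlap. The abundant genes weigh most in this sum and went both ways. Mean CPM was 148 with shNC and 210 with shNUF2 for ISG15, and 188 and 107 for PARP14. The 18 higher and 7 lower members kept their direction in all 15 alternative settings in which they were tested.

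**Figure D1:**
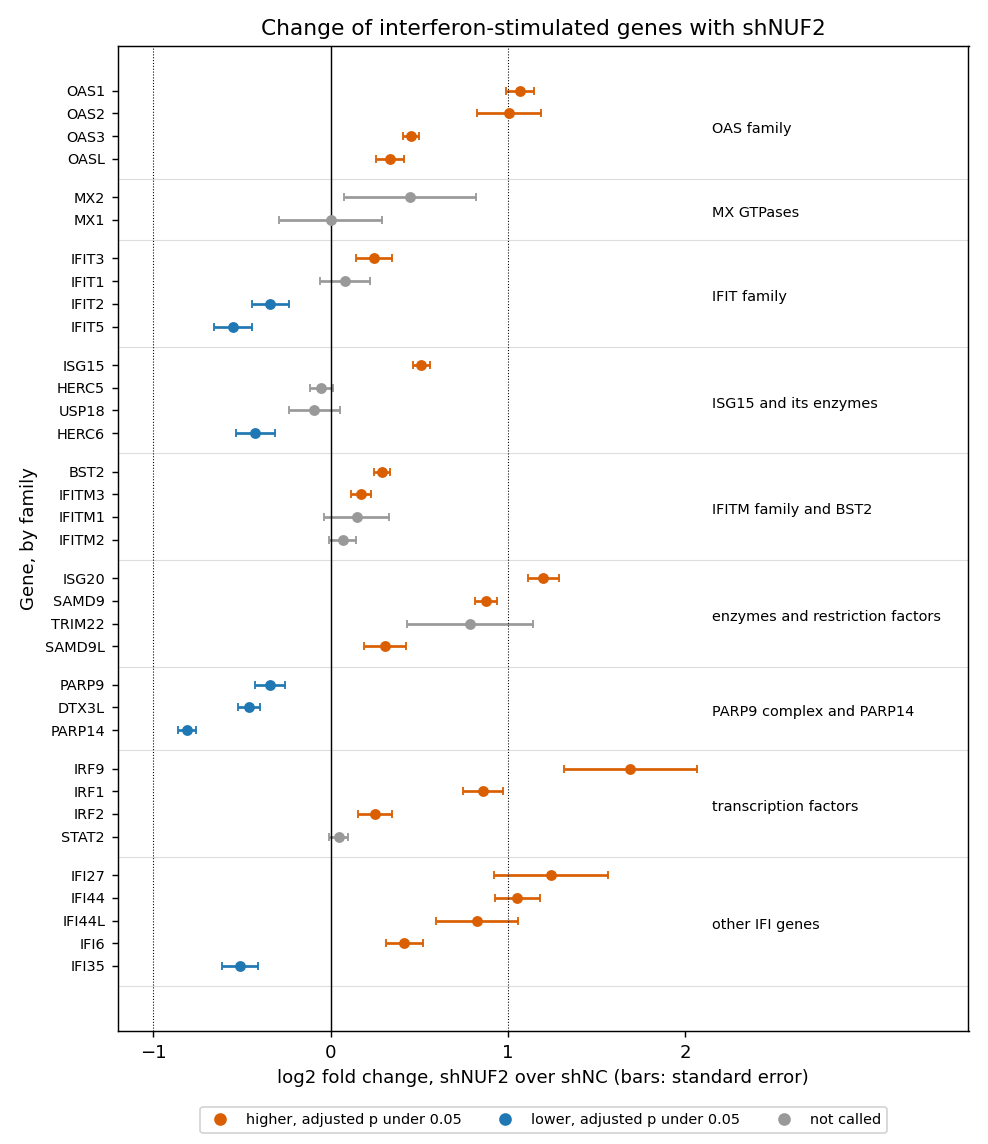
Log2 fold change of the 34 tested genes, shNUF2 over shNC (x axis), with the standard error of the edgeR fit as bars, grouped by family (y axis) and coloured by the call at an adjusted p under 0.05. The OAS family sits to the right of 0 in all 4 members, PARP9, DTX3L and PARP14 sit to the left, and the IFIT family lies on both sides.

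On the length-adjusted FPKM scale the members spanned a wide range before any knockdown. The FPKM rest on the gene lengths of the deposited table, such as 12994 bases for MX2 and 867 for ISG15. A listed length above that of the transcripts present lowers the FPKM, so ranks between genes are approximate. ISG15, a ubiquitin-like protein that is joined to other proteins, had the highest mean level, 172 ± 9.03 FPKM with shNC (SD, n = 3). BST2, also called tetherin, which holds budding virus at the cell surface, followed at 145 ± 3.50 FPKM and IFITM3, which blocks virus entry from endosomes, at 97.2 ± 2.62 FPKM. IFI6 came next at 28.3 ± 5.12 FPKM and did not differ beyond its spread from IFITM2 at 24.3 ± 1.10 FPKM. At the other end of the tested genes stood the GTPase MX2 at 0.101 ± 0.0471 FPKM, TRIM22 at 0.186 ± 0.0705 FPKM and IRF9 at 0.192 ± 0.0841 FPKM. OVCAR3 cells with the control hairpin thus held abundant mRNA for ISG15, BST2 and IFITM3 beside very little for MX1, MX2, IFI27 and TRIM22. Few reads were counted for IRF9 as well, but most of its sequence is shared with a read-through gene, so its level is uncertain.

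**Figure D2:**
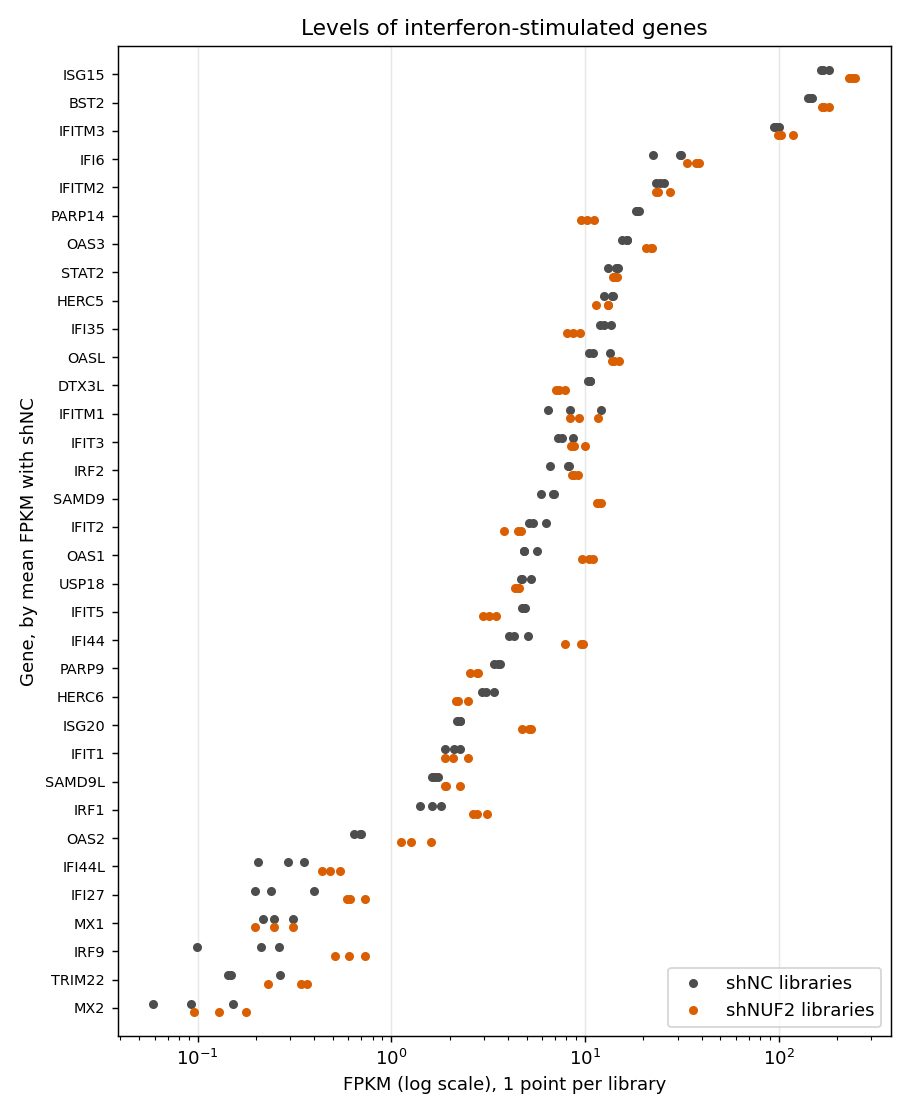
FPKM of the 34 tested genes on a log axis (x axis), 1 point per library, ordered by the mean with shNC (y axis). ISG15, BST2 and IFITM3 stand apart from the other genes at the high end, and the shNUF2 points lie to the right of the shNC points for OAS1, ISG20, IFI44 and SAMD9 and to the left for PARP14.

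The OAS family rose in all 4 members (against 33.9% of all genes). OAS1, OAS2 and OAS3 make short chains of linked adenylates when they bind double-stranded RNA, and these chains activate the nuclease RNase L, while OASL is a related protein without that activity. OAS1 (ENSG00000089127, chromosome 12 from 112906783 to 112933222 in the deposited table) was read 395, 376 and 410 times with shNC, against 664, 681 and 835 times with shNUF2. All shNUF2 libraries were above all shNC libraries, at a mean of 52.4 ± 3.13 against 25.0 ± 2.37 CPM (SD, n = 3). Its log2 fold change was 1.07 (SE 0.08, adjusted p = 5.36e-12).

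OAS2 (ENSG00000111335, chromosome 12 from 112978395 to 113011723) was measured from fewer reads, 62, 63 and 73 with shNC and 97, 131 and 120 with shNUF2. The groups did not overlap, and its log2 fold change was 1.01 (SE 0.18, adjusted p = 2.38e-05). The value of OAS2 was 0.96 without shNC replicate 2 and 0.86 without shNUF2 replicate 2. OAS3, the most abundant of the genes on this stretch of chromosome 12 in reads, had 1904 to 2154 reads with shNC and 2329 to 2755 with shNUF2, a log2 fold change of 0.46 (SE 0.05, adjusted p = 2.32e-09). OASL had 543 to 744 and 648 to 803 reads. Although its raw counts overlapped, in CPM its libraries separated, with a log2 fold change of 0.34 (SE 0.08, adjusted p = 0.00055).

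Of the genes grouped here as enzymes and restriction factors, 3 of the 4 tested rose (75%, against 33.9% of all genes), and the call of 1 of the 3, SAMD9L, was lost in 4 settings. ISG20 (ENSG00000172183, chromosome 15 from 88636153 to 88656483) encodes an exonuclease that degrades single-stranded RNA. It was read 230, 256 and 266 times with shNC, against 466, 478 and 574 times with shNUF2. The lowest shNUF2 library was far above the highest shNC library, and the means were 15.9 ± 0.376 and 36.5 ± 1.81 CPM, with a log2 fold change of 1.20 (SE 0.09, adjusted p = 4.20e-12). SAMD9, a large cytoplasmic protein that restricts poxviruses, rose from 571 to 806 reads per library to 1082 to 1210 (log2 fold change 0.88, SE 0.06, adjusted p = 2.42e-12). Its neighbour and close relative SAMD9L had 170 to 211 and 179 to 247 reads, with a log2 fold change of 0.31 (SE 0.12, adjusted p = 0.026). The call of SAMD9L was lost without shNC replicate 2 (adjusted p = 0.0779) and without shNUF2 replicate 3 (adjusted p = 0.166), and with limma on log2 FPKM at pseudocounts of 1 and 0.1 (adjusted p = 0.0601 and 0.0729). The ubiquitin ligase TRIM22 was not called, at 12 to 25 reads with shNC and 18 to 31 with shNUF2 (log2 fold change 0.79, SE 0.36, adjusted p = 0.0528). Its groups overlapped, with shNC replicate 2 at 25 reads and shNUF2 replicate 2 at 18. Without the former its log2 fold change was 1.13 (adjusted p = 0.0222), and without the latter 0.96 (adjusted p = 0.0348).

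RSAD2 and CMPK2, which lie next to each other on chromosome 2, were too low to be tested. RSAD2 encodes viperin, an enzyme that makes a chain-terminating nucleotide, and CMPK2 is a nucleotide kinase of mitochondria. RSAD2 was read 5, 4 and 0 times with shNC, against 11, 12 and 6 times with shNUF2, so the shNUF2 libraries were all above the shNC ones. In the fit with no filter on low counts its log2 fold change was 1.80 (adjusted p = 0.0354). CMPK2 had 0 reads in all libraries but shNUF2 replicate 1, where it had 2.

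Among the transcription factors, 3 of 4 rose (75%, against 33.9% of all genes), and the call of 1 of the 3, IRF2, was lost in 6 settings. IRF9 (ENSG00000213928, chromosome 14 from 24161265 to 24166565), the DNA-binding subunit of ISGF3, was read 5, 12 and 16 times with shNC, against 30, 24 and 40 times with shNUF2. Every shNUF2 library was above every shNC library, though all of them were low, at 0.678 ± 0.296 and 2.24 ± 0.407 CPM. The log2 fold change of 1.69 (SE 0.37, adjusted p = 0.000271) was the largest of the tested members, with a wide error. Of the words of 50 bases in the IRF9 transcripts of GENCODE release 29, 82.7% are also part of the read-through gene AL136295.5, which had 3 to 5 reads with shNC and 1 to 8 with shNUF2. How the counting treated reads shared by both was not given in the sources used here, so the IRF9 level is uncertain.

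IRF1, an activator that interferon gamma induces and whose window holds the GAS-like core printed above, had 178 to 220 reads with shNC and 280 to 336 with shNUF2 (log2 fold change 0.86, SE 0.11, adjusted p = 2.39e-07). IRF2, which competes with IRF1 for the same sites, had 344 to 392 and 345 to 429 reads, with a log2 fold change of 0.25 (SE 0.10, adjusted p = 0.0238). Without shNC replicate 3 the log2 fold change of IRF2 was 0.14 (adjusted p = 0.215), and its call was also lost without shNUF2 replicate 1 (adjusted p = 0.052) or 3 (adjusted p = 0.0787), with library totals (adjusted p = 0.0513) and with limma (adjusted p = 0.0564 and 0.0546). STAT2, the partner of IRF9 in ISGF3, was not called, at 86.5 ± 5.32 CPM with shNC and 89.3 ± 2.16 CPM with shNUF2 (log2 fold change 0.05, SE 0.05, adjusted p = 0.458).

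Of the other genes named for induction by interferon, 4 rose and 1 fell among the 5 tested (80% and 20%, against 33.9% and 33.8% of all genes). IFI27 (ENSG00000165949, chromosome 14 from 94104836 to 94116698), a small membrane protein found at mitochondria, was read 14, 26 and 14 times with shNC, against 35, 32 and 46 times with shNUF2. The groups did not overlap, and the log2 fold change was 1.24 (SE 0.32, adjusted p = 0.00137). IFI44 (ENSG00000137965, chromosome 1 from 78649796 to 78664078) was read 124, 129 and 175 times with shNC, against 269, 261 and 244 times with shNUF2. Again every shNUF2 library was above every shNC library, with a log2 fold change of 1.05 (SE 0.13, adjusted p = 5.07e-08).

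IFI44L, the relative of IFI44 that lies beside it, had 33 to 51 reads with shNC and 59 to 77 with shNUF2 (log2 fold change 0.83, SE 0.23, adjusted p = 0.00268). IFI6, a small membrane protein that opposes cell death, had a log2 fold change of 0.42 (SE 0.11), at 320 to 415 and 426 to 436 reads (adjusted p = 0.00111). Without shNC replicate 3, its lowest library, the value of IFI6 was 0.26 (adjusted p = 0.0188). IFI35, which forms a complex with NMI, fell by 0.51 on the log2 scale (SE 0.10, adjusted p = 6.53e-05), from 330 to 455 reads per library to 222 to 253. XAF1, which binds the apoptosis inhibitor XIAP, was too low to be tested, with 2, 3 and 4 reads in the control libraries and 1, 1 and 0 after knockdown. EPSTI1, also untested, had 5, 2 and 3 reads and 1, 0 and 1 reads. In these 2 genes the shNUF2 libraries were the lower ones, and without a filter the adjusted p was 0.262 for XAF1 and 0.205 for EPSTI1.

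ISG15 and the enzymes that attach or remove it did not go together. ISG15 (ENSG00000187608, chromosome 1 from 1001138 to 1014540) was read 2234, 2292 and 2443 times with shNC, against 2853, 2812 and 3049 times with shNUF2. The groups were well apart, and the log2 fold change was 0.51 (SE 0.05, adjusted p = 4.81e-10). HERC5, the ligase that joins ISG15 to its targets in human cells, was not called, at 62.9 ± 3.38 and 60.7 ± 4.30 CPM (log2 fold change -0.05, SE 0.06, adjusted p = 0.48). The related ligase HERC6 fell by 0.42 on the log2 scale (SE 0.11, adjusted p = 0.00155). USP18, which takes ISG15 off again and also damps the type I interferon receptor, was not called, at 8.96 ± 0.606 and 8.42 ± 0.310 CPM (adjusted p = 0.585). Of the USP18 words of 50 bases, 23.4% occur in other genes, nearly all in USP41, which had 0 to 1 read per library.

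Of the membrane proteins that act on virus particles, 2 of 4 rose (50%, against 33.9% of all genes), both by small amounts. BST2 (ENSG00000130303, chromosome 19 from 17402939 to 17405630) was read 2317, 2499 and 2661 times with shNC, against 2533, 2621 and 2869 times with shNUF2, and IFITM3 (ENSG00000142089, chromosome 11 from 319676 to 327537) had 1623, 1711 and 1901 reads and 1568, 1785 and 1807. Their raw counts overlapped, and after scaling to library size the shNUF2 libraries were above the shNC libraries for both. The log2 fold change of BST2 was 0.29 (SE 0.05, adjusted p = 3.13e-06), and that of IFITM3 was 0.17 (SE 0.06, adjusted p = 0.00784). IFITM3 lost its call when shNUF2 replicate 2 was left out (log2 fold change 0.10, adjusted p = 0.116) and with limma (adjusted p = 0.0919 and 0.0907). IFITM1 and IFITM2 were not called, with adjusted p of 0.485 and 0.441. The IFITM genes share sequence, and words of 50 bases found in other genes made up 32.9% of IFITM1, 35.3% of IFITM2 and 16% of IFITM3. The position given for IFITM2 in the table also runs over IFITM1, so reads of these genes may be split between them.

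The IFIT proteins bind viral RNA ends and stop their translation, and their genes lie in a row on chromosome 10 from 89283694 to 89420997. They went in different directions. IFIT5 fell by 0.55 on the log2 scale (SE 0.11, adjusted p = 6.93e-05), from 268 to 336 reads to 165 to 213. IFIT2 fell by 0.34 (SE 0.11, adjusted p = 0.00655), from 296 to 434 reads to 238 to 253. IFIT2 was at adjusted p = 0.06 without shNC replicate 3 and 0.0545 without shNUF2 replicate 3.

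IFIT3 rose by 0.25 on the log2 scale (SE 0.10, adjusted p = 0.0326), and IFIT1, whose promoter carries a pair of ISRE-like cores, was not called at 9.51 ± 0.871 and 10.0 ± 1.28 CPM (adjusted p = 0.62). The call of IFIT3 was lost without shNC replicate 1 (adjusted p = 0.115), shNC replicate 3 (adjusted p = 0.0957) or shNUF2 replicate 3 (adjusted p = 0.185), with library totals (adjusted p = 0.0691), with no filter (adjusted p = 0.0567) and with limma (adjusted p = 0.0562 and 0.0536). The MX GTPases, which trap viral nucleocapsids, were not called. MX1 had 30 to 42 reads with shNC and 26 to 37 with shNUF2, a log2 fold change of 0.00 (SE 0.29, adjusted p = 0.996) whose sign changed between settings. MX2 had 13 to 31 and 19 to 32 reads (log2 fold change 0.45, SE 0.37, adjusted p = 0.289). With single libraries left out the value of MX2 ranged from 0.15 to 0.87, the latter without shNC replicate 2 (adjusted p = 0.084). A difference was not detectable in the MX genes at this depth.

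PARP9, DTX3L and PARP14 all fell (3 of 3, against 33.8% of all genes). PARP9 and the ubiquitin ligase DTX3L form a complex that modifies histones and other proteins, and PARP14 is an ADP-ribosyltransferase, and all 3 genes lie on chromosome 3 between 122527924 and 122730840. PARP14 had 2655 to 3295 reads with shNC and 1358 to 1739 with shNUF2. The groups were far apart, at 188 ± 2.72 and 107 ± 7.61 CPM, and its log2 fold change of -0.81 (SE 0.05, adjusted p = 1.13e-13) was the most negative of the tested members. DTX3L fell by 0.46 on the log2 scale (SE 0.06, adjusted p = 5.01e-07), from 848 to 1041 reads to 536 to 693. PARP9 fell by 0.34 (SE 0.09, adjusted p = 0.00101), from 458 to 512 reads to 298 to 383. DTX3L and PARP9 overlap at their ends on opposite strands, and whether the counting used the strand was not given in the sources used here.

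**Figure D3:**
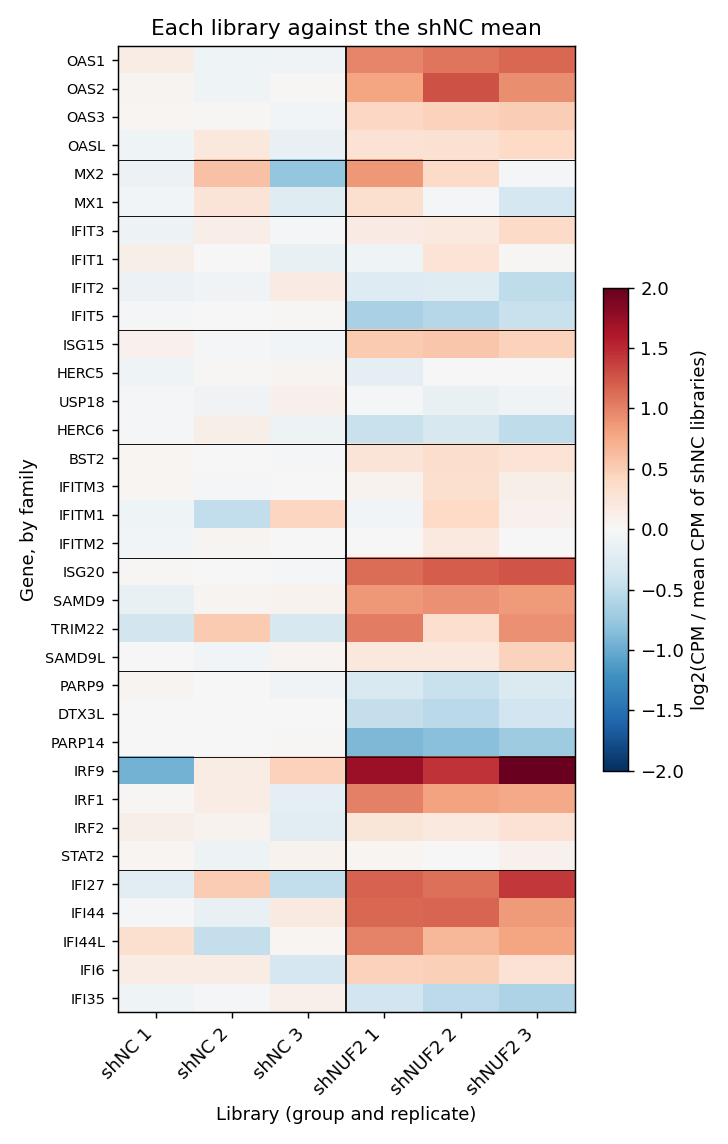
Colour map of log2 CPM over the mean CPM of the shNC libraries, with 1 row for each tested gene, by family, and 1 column for each library. The shNUF2 columns are red for the OAS family, ISG20, SAMD9, IRF9 and IFI44 and blue for PARP9, DTX3L, PARP14 and IFIT5, while MX1, MX2 and IFITM1 vary as much within a group as between groups.

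Many of these genes lie side by side. Of the 38 genes, 23 lie in 9 clusters of neighbours less than 200000 bases apart, which gives 19 pairs of tested genes. The ratio of read counts of neighbours within a library needs no scaling to library size, and in 10 of the 19 pairs (52.6%) the ratios of the shNUF2 libraries did not overlap those of the shNC libraries. Over all 32389 pairs of tested genes at that distance, with a read in each library, the share was 64.6%, so separated ratios were no more frequent in these pairs than in neighbours at large. The exact two-sided permutation test gave p = 0.10 for each of these, the smallest that 3 against 3 libraries allow, and 0.19 after Benjamini-Hochberg adjustment over the 19 pairs. With this number of libraries no pair could pass 0.05, so the test decides nothing about the pairs.

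The ratio of IFIT3 to IFIT5 reads was 1.03 ± 0.0878 with shNC and 1.78 ± 0.0368 with shNUF2. That of SAMD9 to SAMD9L was 3.74 ± 0.354 and 5.61 ± 0.624. The ratio of OAS1 to OAS3 was 0.192 ± 0.0145 and 0.293 ± 0.00909, and that of OAS1 to OAS2 was 5.99 ± 0.378 and 6.33 ± 0.985, with overlapping libraries. DTX3L to PARP14 went from 0.318 ± 0.00210 to 0.407 ± 0.0206, as PARP14 fell further than its neighbours. IFI44L to IFI44 was 0.320 ± 0.0815 and 0.273 ± 0.0422, with overlapping libraries.

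**Figure D4:**
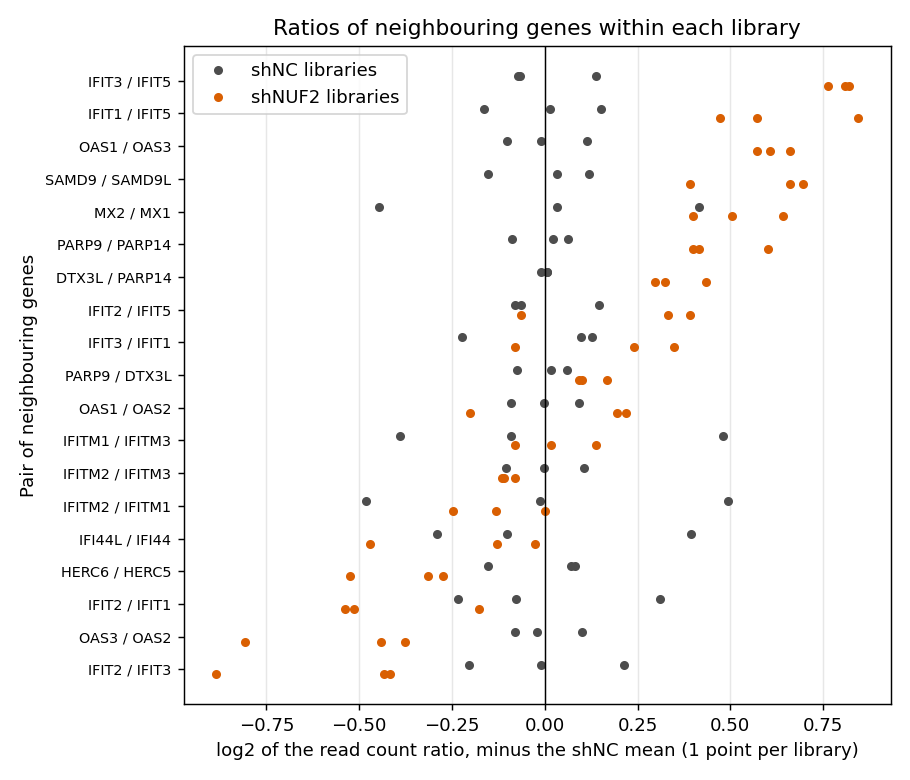
Log2 of the read count ratio of neighbouring genes minus the mean of the shNC libraries (x axis), 1 point per library, for the 19 pairs (y axis). The shNUF2 points of IFIT3 over IFIT5, IFIT1 over IFIT5, OAS1 over OAS3 and SAMD9 over SAMD9L lie to the right of all shNC points, and those of IFIT2 over IFIT3 and OAS3 over OAS2 lie to the left.

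Of the ligands that start this program, 9 were looked up and 0 had enough reads to be tested. IFNE, an epithelial type I interferon, was read 4, 4 and 7 times with shNC, against 12, 11 and 8 times with shNUF2, IFNA1 had 0 to 1 and 0 to 5, and IFNL1 had 0 and 0 to 2. IFNA2, IFNB1, IFNK, IFNG, IFNL2 and IFNL3 were at 0 in all 6 libraries, where a count of 0 allows up to 3 reads per library. At this depth the mRNA of these ligands other than IFNE was close to or below what could be counted in both groups, and other interferon genes were not looked up.

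Of the 6 receptor genes, 2 rose (33.3%) and 1 fell (16.7%), shares at or below the 33.9% and 33.8% of all genes. IFNGR2, the signalling chain of the interferon gamma receptor, had a log2 fold change of 0.75 (SE 0.11, adjusted p = 1.29e-06), and IFNLR1, the specific chain of the type III receptor, one of 0.65 (SE 0.16, adjusted p = 0.000579). IFNAR1 of the type I receptor fell by 0.18 on the log2 scale (SE 0.06, adjusted p = 0.00889), and IFNAR2, IFNGR1 and IL10RB were not called. IFNGR1 had 976 to 1098 reads with shNC and 887 to 997 with shNUF2 (log2 fold change 0.07, SE 0.06). IFNAR2 had only 5 to 13 and 11 to 13 reads (log2 fold change 0.86, SE 0.50). IL10RB had 16 to 24 and 14 to 27 (log2 fold change 0.16, SE 0.35). For IFNAR2 and IL10RB a difference was not detectable at this depth. Among the signalling genes, TYK2 and SOCS1 rose, JAK1 and SOCS3 fell and JAK2 was not called.

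SOCS1, a feedback inhibitor of the JAK kinases, was read 1, 0 and 3 times with shNC, against 28, 31 and 20 times with shNUF2, at 0.0816 ± 0.0877 and 1.93 ± 0.543 CPM (adjusted p = 4.76e-07). The groups were far apart, but the size of the change rests on the few shNC reads. JAK1 fell by 0.14 on the log2 scale (SE 0.04, adjusted p = 0.00557) and SOCS3 by 0.20 (SE 0.05, adjusted p = 0.00209), and TYK2 had a log2 fold change of 0.12 (SE 0.05, adjusted p = 0.0497).

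A further 52 interferon-regulated genes outside the 38 were looked up for comparison, and 46 had enough reads. Of these 19 rose (41.3%), 16 fell (34.8%) and 11 were not called, with a median log2 fold change of 0.09. These shares can be set beside 33.9% and 33.8% of all genes. The largest increases were those of CD274, which encodes the checkpoint ligand PD-L1, at 2.65 (SE 0.18), the chemokine CXCL11 at 1.88 (SE 0.52) and the helicase HELZ2 at 1.65 (SE 0.05). CXCL11 rested on 3 to 6 reads with shNC and 10 to 18 with shNUF2. The largest decreases were those of TMEM140, which fell by 1.21 (SE 0.10), of TRIM14, an adaptor of antiviral signalling, by 0.90 (SE 0.06), and of NMI, the partner of IFI35, by 0.82 (SE 0.09).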

How the data were processed

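RNA-seq libraries were prepared from OVCAR3 cells (3 shNC and 3 shNUF2) with a TruSeq Stranded mRNA kit and sequenced on a NovaSeq instrument. Per the submitters' processing notes, cutadapt, HISAT, HTSeq and GRCh38.p13 were used, with versions and counting options not given in the sources used here. The authors deposited raw read counts per gene without normalization, and deposited FPKM values scaled by gene length and library total. Total counts were 13057534 to 16995452. Groups were taken from the sample titles. No columns of the authors' own comparisons were present, and 0 per-sample columns were left unused.

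The 38 members, the gene lists and the tests were chosen with earlier results of these data known. Counts were tested with edgeR 4.0.16 in R 4.3.3 (filterByExpr, TMM, quasi-likelihood test, all 6 libraries, no covariate), and p-values were adjusted by Benjamini-Hochberg over 12874 genes. The standard error was obtained by dividing the absolute log2 fold change by the root of F. CPM are scaled by TMM. The fold rule, a log2 fold change above 1 or below -1 with an unadjusted p under 0.05, followed the study's methods, with the fold change read as log2. Read counts in every library are given for members past the fold rule, for members with at least 3 reads in a library that the filter removed and for the 3 of highest FPKM. PARP14 and other members are given by range. Some genes of the marker and signalling lists are not reported here. Promoter windows and gene positions come from RefSeq and the deposited table. Shared words of 50 bases were counted in the transcripts of GENCODE release 29.

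Alternatives were DESeq2 size factors, upper quartile scaling, library totals, DESeq2 1.42.0, no filter, at least 1 CPM in every library, a replicate block, leaving out each library in turn, and limma 3.58.1 on log2(FPKM + 1) and log2(FPKM + 0.1). On simulated shNUF2 and shNC counts with 200 genes changed by 2 on the log2 scale, edgeR recovered 200 of them among 12773 genes with 0 false calls. The changed genes were drawn from well-read ones, and a call there needed an adjusted p under 0.05 and a log2 fold change beyond 1. The simulation therefore does not cover the smaller changes or the genes of few reads reported here. Deviations of same-numbered libraries correlated at 0.02, 0.00 and -0.03, so the numbers were not taken as pairs. Ranges of reads cover counting and library spread only.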

Additional observations from a re-analysis of the deposited data

How the results depend on the processing

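Of 506 recomputed log2 fold changes of single members in 15 settings, 467 kept direction and side of the threshold, 22 lost the call, 3 gained it and 14 changed sign. The sign changes were in members that were not called. MX1 was at -0.0053 with upper quartile scaling, -0.036 with library totals, -0.025 with no filter, -0.0026 with the replicate block, -0.0070 with limma on log2(FPKM + 1) and -0.028 on log2(FPKM + 0.1). With each library left out in turn, MX1 ranged from -0.19 to 0.16, STAT2 from -0.0048 to 0.075, IFITM1 from -0.049 to 0.43, HERC5 from -0.10 to 0.0042, IFIT1 from -0.020 to 0.15 and IFITM2 from -0.0020 to 0.10. The calls lost in at least 1 setting were those of IFIT2, IFIT3, IRF2, IFITM3 and SAMD9L, and IFITM1 was called without shNC replicate 3 (0.43, adjusted p = 0.039). The cause was not tested.

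The median of the tested members was 0.23 with library totals and with the filter of 1 CPM, 0.16 and 0.22 with limma at pseudocounts of 1 and 0.1, and 0.22 to 0.31 with a library left out. The number of members past the fold rule was 0 with log2(FPKM + 1), a scale that understates low genes, and 5 to 8 with a library left out. Of the 6, OAS2 lost that size with upper quartile scaling, library totals, no filter, without shNC replicate 2, without shNUF2 replicate 2 and with limma at 0.1, IFI44 without shNC replicate 2, and the 1 CPM filter removed IRF9 and IFI27. Over all genes, 1770 were higher and 634 lower with no filter, 756 were higher with the 1 CPM filter, and 430 higher and 206 lower with log2(FPKM + 1), against 1212 and 536. With the replicate block, the pairing left 6 higher and 0 lower members past the fold rule, 18 higher and 7 lower at the adjusted p and a median of 0.27, and no call of a member changed. Few reads limit IRF9, IFI27, MX1, MX2, TRIM22 and the untested RSAD2, CMPK2, XAF1 and EPSTI1.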
